A study of Mus musculus with 4 samples.

Results

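In brown adipose tissue (BAT), 10 genes tied to glucocorticoid signalling were followed across 4 RNA-seq libraries. They comprise the glucocorticoid receptor gene Nr3c1, the activating enzyme gene Hsd11b1, the commonly used receptor targets Tsc22d3, Fkbp5, Sgk1, Zbtb16, Klf9 and Cdkn1a, and the metallothionein genes Mt1 and Mt2. The members were chosen by symbol as a named set, out of 52022 genes with a matched transcript, and all 10 were expressed highly enough to be tested. The tissue came from male mice that had eaten a 60% high fat diet for 12 weeks and had free access to food. The libraries KO 1 and KO 2 are labelled as knockouts and came from mice without ATF4 in thermogenic adipocytes. WT 1 and WT 2 are labelled as wild type, and both genotypes received the same diet. ATF4 is the transcription factor of the integrated stress response. Not given in the sources used here were the strain, the age of the mice and the driver used to delete the gene. Library names carry 1 of 2 prefixes. S1 marks WT 2 with KO 1, S2 marks WT 1 with KO 2, and their meaning was not given. Each member was compared between the prefixes and, within each prefix, between the genotypes. Since the labels leave it unsaid whether the libraries stem from separate mice, p-values here cover only the spread among the 4 libraries.

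Glucocorticoids are adrenal steroids whose secretion follows a daily rhythm and rises with stress. Inside the cell, 11beta-hydroxysteroid dehydrogenase type 1 (Hsd11b1) converts the inactive keto form to the active hormone, which binds the glucocorticoid receptor. Bound receptor leaves its chaperone complex, enters the nucleus and binds palindromic elements near its target genes, several of which feed back on the pathway or on inflammation. Metallothioneins are small cysteine-rich proteins that bind zinc and copper, and their genes respond both to metal, through the factor MTF-1, and to glucocorticoids.

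The promoter sequences of 4 members are shown because they carry letters that match a receptor-type palindrome, several metal response cores or a p53-type pair. Each run gives 250 bases before and 30 bases after a start site listed by RefSeq on GRCm38.p6, on the plus strand. For Mt1 (chr8:94178839-94179118) capitals mark a receptor-type palindrome and 3 metal response cores, and for Mt2 (chr8:94172368-94172647) they mark 4 metal response cores. In the Sgk1 promoter (chr10:21993640-21993919) capitals mark a receptor-type palindrome, and in the Cdkn1a promoter (chr17:29090729-29091008) a p53-type pair.
Mt1: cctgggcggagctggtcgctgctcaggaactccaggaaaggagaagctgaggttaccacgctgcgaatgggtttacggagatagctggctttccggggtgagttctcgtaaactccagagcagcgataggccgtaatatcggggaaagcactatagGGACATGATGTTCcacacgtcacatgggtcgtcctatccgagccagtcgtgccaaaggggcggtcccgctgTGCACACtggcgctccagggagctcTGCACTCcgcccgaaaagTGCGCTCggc
Mt2: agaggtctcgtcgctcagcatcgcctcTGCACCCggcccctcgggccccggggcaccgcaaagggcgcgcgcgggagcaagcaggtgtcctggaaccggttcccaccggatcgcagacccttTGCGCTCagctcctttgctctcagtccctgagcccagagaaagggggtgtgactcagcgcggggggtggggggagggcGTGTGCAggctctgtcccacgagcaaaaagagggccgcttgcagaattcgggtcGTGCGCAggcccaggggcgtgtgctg
Sgk1: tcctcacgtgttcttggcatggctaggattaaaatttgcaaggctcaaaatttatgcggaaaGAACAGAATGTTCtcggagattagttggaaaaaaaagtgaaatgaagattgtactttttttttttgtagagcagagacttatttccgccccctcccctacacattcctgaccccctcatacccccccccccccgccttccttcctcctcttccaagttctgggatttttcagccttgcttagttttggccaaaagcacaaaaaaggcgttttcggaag
Cdkn1a: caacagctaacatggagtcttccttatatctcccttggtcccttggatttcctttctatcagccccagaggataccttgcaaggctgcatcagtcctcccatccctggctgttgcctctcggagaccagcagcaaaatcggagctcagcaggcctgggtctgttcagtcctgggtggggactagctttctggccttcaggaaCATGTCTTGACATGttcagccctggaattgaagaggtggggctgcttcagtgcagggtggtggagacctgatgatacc

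Motifs were searched as plain letters on both strands of the 300-base RefSeq promoters (250 bases before and 50 after the start), of which 16 belonged to 8 members. Zbtb16 and Nr3c1 were not among them. The receptor palindrome GNACANNNTGTNC stood in 0.475% of all 32851 promoters, and among the members in that of Mt1 and in 1 of Sgk1. In Mt1 it lay between positions -94 and -82. In Sgk1 it lay between -188 and -176, which is 952 bases upstream of the start of the most abundant transcript, Sgk1-201. The shorter single site AGAACA, present in 19.0% of promoters, overlapped the Sgk1 palindrome on both sides and also occurred elsewhere in Sgk1 promoters and in 1 promoter of Tsc22d3. In Tsc22d3 the site lay 57515 bases upstream of the start of the most abundant transcript, Tsc22d3-201. The metal response core, searched as TGCACNC or TGCGCNC, stood in 25.7% of promoters, with 3 or more matches in 1.97% and 4 or more in 0.517%. Mt1 held 3 matches and Mt2 held 4, of which 2 were on the minus strand, and 1 promoter each of Sgk1 and Hsd11b1 held 1. The p53-type pair CATGNNNNNNCATG stood in 0.712% of promoters, and in Cdkn1a it lay at -48 to -35 of an upstream start, 2825 bases before the start of the main transcript Cdkn1a-201. The E-box CACGTG, present in 7.15% of promoters, occurred in those of Fkbp5 and Sgk1. A match is a description of the letters and not evidence of binding.

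The libraries held between 25985367 (KO 1) and 34813870 (WT 2) estimated counts. CPM here are gene counts scaled to a common total of 1e6 with TMM factors. Atf4, the targeted gene, stood at 29.2 CPM in WT 1, 107 CPM in WT 2, 24.97 CPM in KO 1 and 24.5 CPM in KO 2. The library labelled WT 1 was therefore close to the KO libraries for Atf4. It is called WT 1 for short below, and every genotype direction given rests in part on that label. Between genotypes Atf4 itself did not pass (log2 fold change -1.18, SE 0.34, adjusted p = 0.174 by edgeR with the prefix as a block). In log2 CPM, KO minus WT for Atf4 was -2.09 within S1 and -0.25 within S2. Brown adipocyte markers such as Ucp1 were abundant, with a summed level of 8157 to 10130 CPM over 8 genes. Ucp1 alone made up 5563 (WT 1) to 7024 CPM (KO 1) of this sum. Of the 8, Dio2 was lower in KO (log2 fold change -0.92, adjusted p = 0.0132 by edgeR). Elovl3 was lower in S2 (-2.16, adjusted p = 0.00109 by edgeR), and the others passed in neither comparison. Over 10 skeletal muscle markers the sum was 1.59 CPM for WT 1 and 1.44 CPM for WT 2 but 2436 CPM for KO 1 and 2108 CPM for KO 2, and all 10 rose in KO. Among them, Myh2, Myh4 and Pvalb were at 0 counts in at least 1 WT library. In turn, 8 macrophage markers summed to 387 and 311 CPM in S2 (WT 1, KO 2) and to 284 and 108 CPM in S1 (WT 2, KO 1), and 5 of these 8 rose in S2. White adipocyte markers summed to 764, 454, 146 and 427 CPM in WT 1, WT 2, KO 1 and KO 2, with 4 of 6 lower in KO by the test.

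Per length, Mt1 was the most abundant member. On the TPM scale, which divides by transcript length and sums to 1e6 in each library, Mt1 ranged from 123 (WT 1) over 182 (KO 2) and 191 (WT 2) to 227 (KO 1), with a mean of 181, and no library of any other member reached this range. Sgk1, Cdkn1a, Mt2 and Hsd11b1 followed with mean TPM of 49.9, 48.3, 44.0 and 42.7, and the ranges of neighbours in this order overlapped. Tsc22d3 (22.9) and Klf9 (21.1) also overlapped each other, and Tsc22d3 overlapped Hsd11b1. Nr3c1 had a mean TPM of 11.2 with every library below the lowest of Klf9. Zbtb16 (7.73) and Fkbp5 (2.74) were the lowest, but Zbtb16 spanned 0.792 to 26.2 TPM and so overlapped both of its neighbours. In bulk tissue, a lower level from fewer cells of a type and one from less RNA per cell cannot be told apart.

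**Figure D1:**
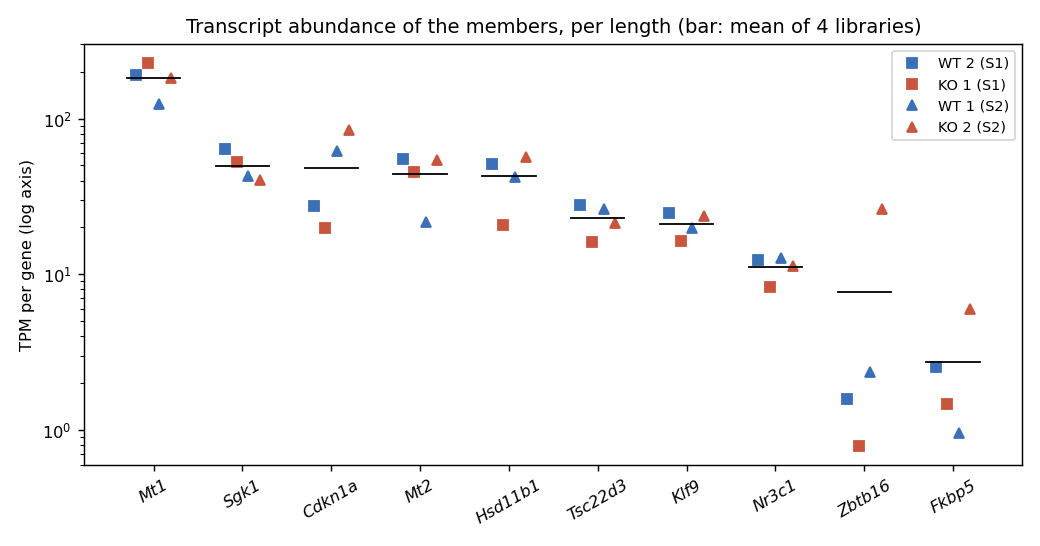
Transcript abundance of the 10 members in TPM on a log axis, by gene in order of the mean; each point is 1 library (blue WT, red KO; squares S1, triangles S2) and the bar is the mean of 4. Mt1 lies above all other members, and Zbtb16 and Fkbp5 spread over the widest range, with KO 2 at the top of both.

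Between genotypes no member passed the test, while 2.05% of 15643 tested genes did (1.57% higher and 0.473% lower in KO). The test was edgeR's quasi-likelihood test with the prefix as a block and Benjamini-Hochberg adjustment at 0.05. At an unadjusted p under 0.05 it gave 3 members, Tsc22d3, Mt1 and Mt2, against 8.88% of all genes. The genotypes did not overlap for 3 members, with Tsc22d3 and Nr3c1 lower and Mt1 higher in both KO libraries, against 26.3% of all genes. Without WT 1, and with genotype as the sole term, the log2 fold change was -0.42 for Tsc22d3, -0.18 for Nr3c1 and 0.28 for Mt1, beside -0.43, -0.24 and 0.51 with it. Between prefixes 1 member passed, Cdkn1a, which rose in S2, against 3.14% of all genes (1.59% higher and 1.55% lower in S2). The prefixes did not overlap for Sgk1, Zbtb16 and Cdkn1a, 3 of 10 members, against 53.2% of all genes. At an unadjusted p under 0.05 the prefix gave Zbtb16, Cdkn1a and Mt1, against 19.8% of all genes. The median size of the members' log2 fold change was 0.38 between genotypes and 0.40 between prefixes, beside 0.16 and 0.26 over all genes. The members were chosen with earlier results of these data known, so these medians describe the set and test nothing.

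**Figure D2:**
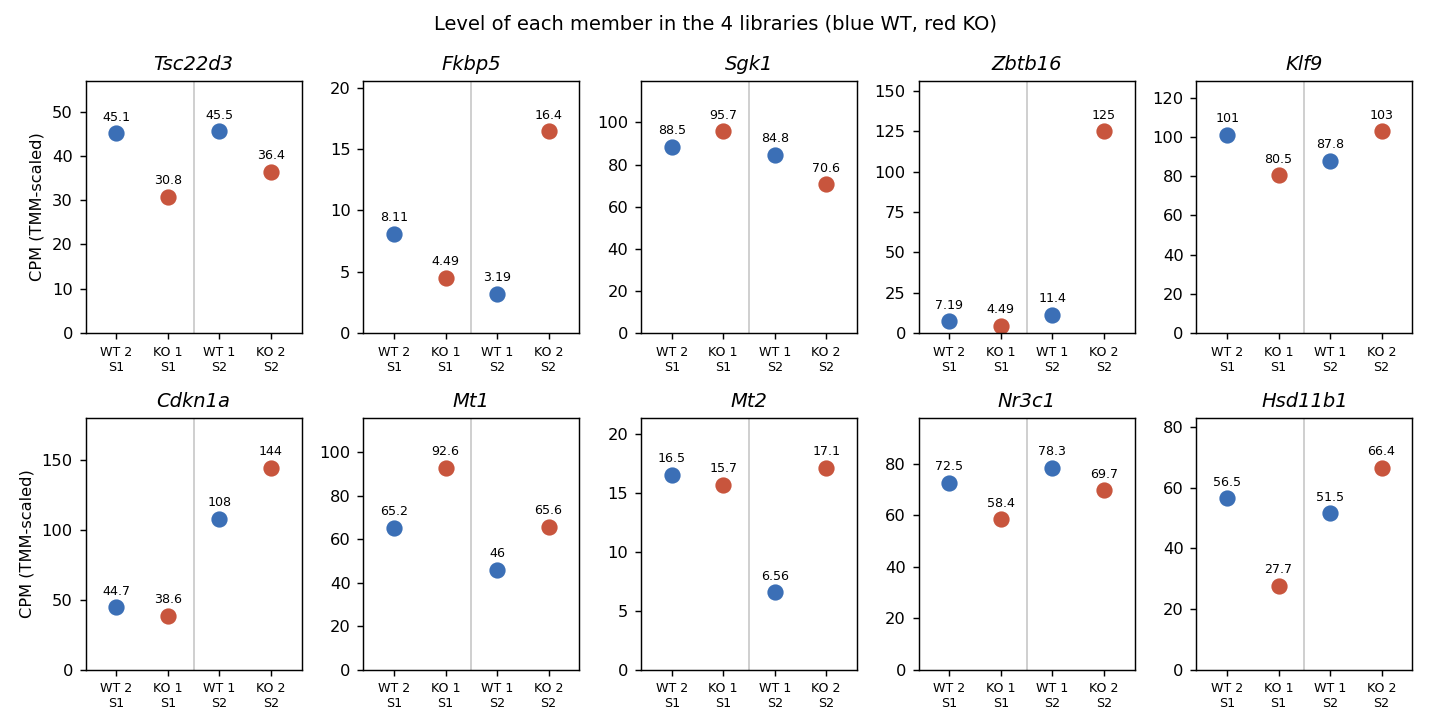
Level of each member in CPM in the 4 libraries, S1 left and S2 right of the grey line (blue WT, red KO; each axis starts at 0). Cdkn1a separates the prefixes, Zbtb16 is high in KO 2 alone at 125 CPM, and Tsc22d3 and Mt1 keep the same genotype order in both prefixes.

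Nr3c1 (ENSMUSG00000024431, chr18:39410545-39519421 in GENCODE vM21) encodes the receptor itself. Its level was 78.3 CPM in WT 1, 72.5 CPM in WT 2, 58.4 CPM in KO 1 and 69.7 CPM in KO 2. The genotypes did not overlap, with KO lower, but the distance between KO 2 and WT 2 was small beside the spread within KO. WT averaged 75.4 ± 4.10 CPM and KO 64.1 ± 8.02 CPM (SD, n = 2 each), which the fit gave as -0.24 on the log2 scale (SE 0.15, adjusted p = 0.801 by edgeR). Between prefixes it was 0.18 (SE 0.15, adjusted p = 0.527 by edgeR). Transcript Nr3c1-204 held 74.4% of the gene's mean TPM and Nr3c1-203 held 23.2%. Nr3c1-203 made up 26.6% of the gene for WT 1, 30.4% for WT 2, 17.9% for KO 1 and 15.5% for KO 2, a difference that was not tested.

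Hsd11b1 (ENSMUSG00000016194, chr1:193221634-193264075), which regenerates active hormone within the tissue, stood at 51.5 CPM in WT 1, 56.5 CPM in WT 2, 27.7 CPM in KO 1 and 66.4 CPM in KO 2. The 2 KO libraries thus bracketed both WT libraries, with KO 1 lowest and KO 2 highest of the 4. Within S1 the KO library was 1.03 lower than WT on the log2 CPM scale (-1.03), and within S2 it was 0.37 higher. Neither the genotype (log2 fold change -0.32, SE 0.27, adjusted p = 0.931 by edgeR) nor the prefix (0.56, SE 0.27, adjusted p = 0.284 by edgeR) passed the test. With the prefix as the sole term, leaving out 1 library gave values from 0.0684 (without KO 1) to 1.09 (without WT 2). The summed white adipocyte, macrophage and fibroblast markers were also lowest in KO 1. The fibroblast sum was 594, 837, 345 and 538 CPM in WT 1, WT 2, KO 1 and KO 2. Of the white adipocyte markers, Slc7a10 was lowest in KO 2 (4.76 CPM) and Agt in WT 1 (0.0319 CPM). The part of these markers in the result was not tested. Transcripts Hsd11b1-205, Hsd11b1-203 and Hsd11b1-201 held 63.6, 24.3 and 11.04% of the gene's TPM. The annotated span of the gene overlaps that of Lamb3 on the opposite strand (325 to 522 counts). Whether transcripts of the pair share sequence was not checked. With the strand setting of the counting unknown, reads from any shared stretch could count for either gene.

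Tsc22d3 (ENSMUSG00000031431, chrX:140539528-140600659) encodes the glucocorticoid-induced leucine zipper GILZ, a mediator of the anti-inflammatory actions of the hormone. It was measured at 45.5 CPM in WT 1, 45.1 CPM in WT 2, 30.8 CPM in KO 1 and 36.4 CPM in KO 2. The WT libraries were nearly equal and both KO libraries lay below them. KO averaged 33.6 ± 3.94 CPM, against 45.3 ± 0.299 CPM for WT (SD, n = 2 each). A fitted difference of -0.44 in log2 (SE 0.15) had an unadjusted p of 0.0168 and an adjusted p of 0.326 by edgeR's quasi-likelihood test, and it was -0.55 within S1 and -0.32 within S2. Between prefixes the log2 fold change was 0.13 (SE 0.15, adjusted p = 0.690 by edgeR). Tsc22d3-201 held 64.5% of the TPM of the gene. Its processed transcript Tsc22d3-202 ranged from 7.99% in KO 2 to 27.1% in KO 1.

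Fkbp5 (ENSMUSG00000024222, chr17:28399094-28517527), a co-chaperone that lowers the affinity of the receptor for its hormone, was the least abundant member. It was measured at 3.19 CPM in WT 1, 8.11 CPM in WT 2, 4.49 CPM in KO 1 and 16.4 CPM in KO 2. KO 2 was highest and WT 1 lowest, so both genotypes and both prefixes overlapped. KO 1 was lower than WT 2 in S1 (log2 CPM difference -0.84), whereas KO 2 was higher than WT 1 in S2 (2.35). Neither fitted change passed, with 0.76 for genotype (SE 0.57, adjusted p = 0.896 by edgeR) and 0.30 for prefix (SE 0.57, adjusted p = 0.814 by edgeR). The deposited counts behind these levels were 100, 298, 115 and 480 in WT 1, WT 2, KO 1 and KO 2.

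Zbtb16 (ENSMUSG00000066687, chr9:48654297-48836222) encodes the transcription factor PLZF, a strongly glucocorticoid-induced gene in many tissues. Its level was 11.4 CPM in WT 1, 7.19 CPM in WT 2, 4.49 CPM in KO 1 and 125 CPM in KO 2. KO 2 alone was high, at 10.9 times the next library, while KO 1 was the lowest of all. Of all 15643 tested genes, Zbtb16 had the highest such ratio among genes that peaked in KO 2, a comparison chosen after its values were seen. Fkbp5, also highest in KO 2, exceeded its next library 2.03 times. Among genes that peaked in KO 2, 39 reached that ratio, Fkbp5 included, which is 0.249% of all 15643 tested. Genes that peaked in another library were not counted, and this comparison too was chosen after the values were seen. Almost all of the signal came from 1 transcript, Zbtb16-201, which held 91.8% of the TPM, including 24.1 of 26.2 TPM in KO 2.

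The fitted change of Zbtb16 rests on that library. For genotype the log2 fold change was 1.59 (SE 0.76, adjusted p = 0.614 by edgeR), composed of -0.67 within S1 and 3.44 within S2. Without KO 2 it was -1.06 (adjusted p = 0.332), and without KO 1 it was 3.75 (adjusted p = 0.00103), both by edgeR with genotype alone. For prefix the log2 fold change was 2.71 (SE 0.76, unadjusted p = 0.00474, adjusted p = 0.0860 by edgeR), with 0.67 in WT and 4.78 in KO, and 0.97 without KO 2 (adjusted p = 0.680). Skeletal muscle markers summed to 2436 CPM in KO 1 and 2108 CPM in KO 2, and macrophage markers to 108 and 311 CPM, and their part in the result was not tested.

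Klf9 (ENSMUSG00000033863, chr19:23141226-23168134), a Krüppel-like factor induced by glucocorticoid and thyroid hormone, varied little. It was measured at 87.8 CPM in WT 1, 101 CPM in WT 2, 80.5 CPM in KO 1 and 103 CPM in KO 2. The lowest and highest libraries were both KO, and both prefixes overlapped. Its log2 fold change was -0.05 for genotype (SE 0.17, adjusted p = 1.000 by edgeR) and 0.08 for prefix (SE 0.17, adjusted p = 0.850 by edgeR), with opposite signs in the 2 prefixes (-0.33 in S1, 0.23 in S2).

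Sgk1 (ENSMUSG00000019970, chr10:21882184-21999903), a serum and glucocorticoid-regulated kinase that acts on ion transport and cell survival, stood at 84.8 CPM in WT 1, 88.5 CPM in WT 2, 95.7 CPM in KO 1 and 70.6 CPM in KO 2. Both S2 libraries lay below both S1 libraries, and the genotypes overlapped with KO 1 highest and KO 2 lowest. Its order was thus opposite to that of Zbtb16 and Fkbp5 in the KO libraries. Neither the prefix (log2 fold change -0.25, SE 0.16, adjusted p = 0.417 by edgeR) nor the genotype (-0.07, SE 0.16, adjusted p = 0.997 by edgeR) passed. Per length the order within S1 differed, with 63.6 TPM in WT 2 and 52.7 TPM in KO 1. Transcript Sgk1-201 held 57.0% of the TPM and Sgk1-206 held 19.3%. Sgk1-206 made up 5.02% of the gene in WT 1 and between 17.7 and 25.3% in the other libraries.

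Cdkn1a (ENSMUSG00000023067, chr17:29090976-29100727) encodes p21, a cyclin-dependent kinase inhibitor that is a target of p53 as well as of glucocorticoids. In S2 it was measured at 108 CPM (WT 1) and 144 CPM (KO 2), and in S1 at 44.7 CPM (WT 2) and 38.6 CPM (KO 1). Both S2 libraries were far above both S1 libraries, and the genotypes overlapped. The mean was 126 ± 25.8 CPM in S2 and 41.6 ± 4.29 CPM in S1 (SD, n = 2 each). Cdkn1a rose in S2 by 1.59 in log2 units (SE 0.18, adjusted p = 0.00266 by edgeR's quasi-likelihood test), by 1.27 within WT and 1.90 within KO. By genotype the fit gave 0.11 (SE 0.18, adjusted p = 0.997 by edgeR), from -0.21 in S1 and 0.42 in S2. The main transcript Cdkn1a-201 held between 89.0 and 93.9% of the TPM in every library. With the prefix as the sole term the change was 1.60 (adjusted p = 0.277 by edgeR), so the call, though not its size, depends on the genotype term. Over the alternatives that kept all libraries the adjusted p ranged from 2.1e-16 to 0.405.

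The summed macrophage markers were higher in S2, as was Cdkn1a, and 5 of the 8 passed. Cd68 (log2 fold change -0.13) and Gpnmb (-0.30) went the other way and did not pass. Endothelial markers summed to 635 and 695 CPM in S2 (WT 1, KO 2) and to 830 and 1089 CPM in S1 (WT 2, KO 1). Of these 6, 2 were lower in S2 by the test, and 1, Cldn5, was higher. Clock genes also separated the prefixes, as given below. The part of these genes in the Cdkn1a result was not tested.

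**Figure D3:**
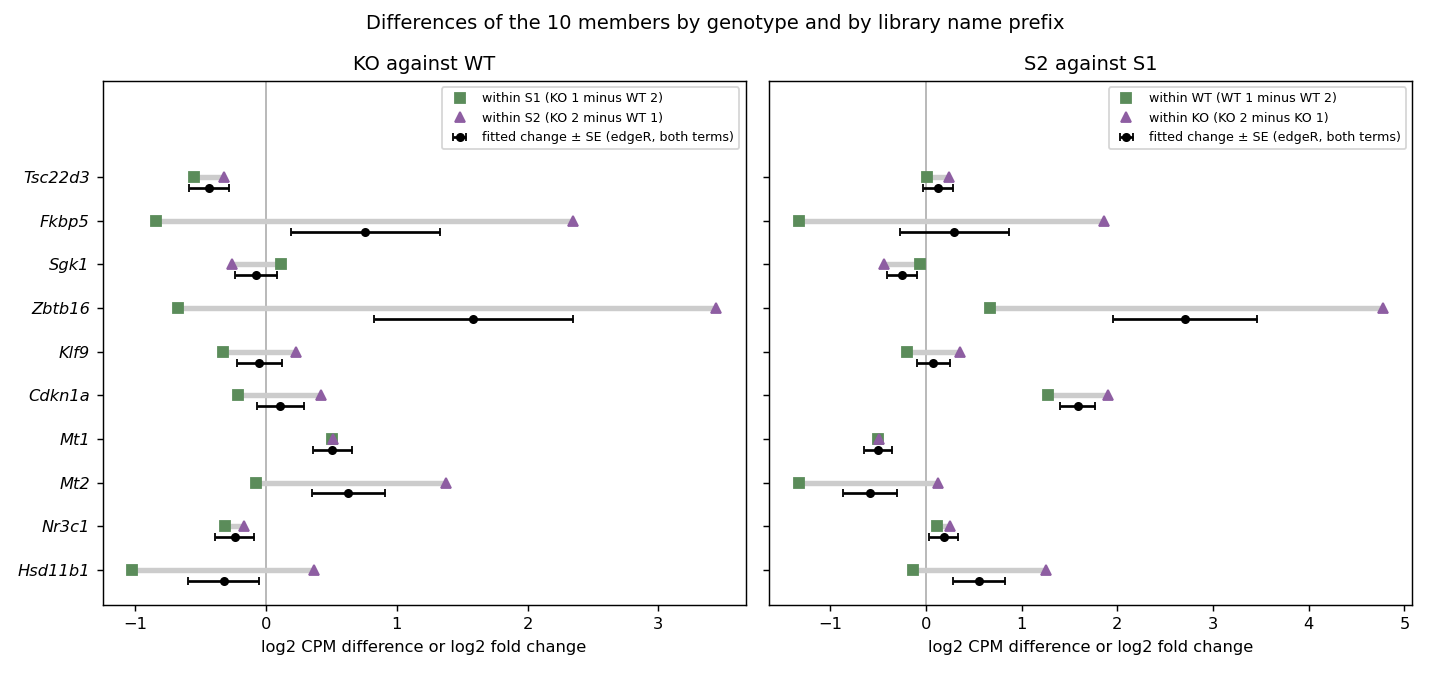
Differences of the 10 members between genotypes (left) and prefixes (right): squares and triangles are single log2 CPM differences within each prefix or genotype, and black points are edgeR log2 fold changes with their SE. Mt1 shows nearly the same difference in each pair (0.50 and 0.51 for genotype), whereas Zbtb16 and Fkbp5 differ in sign between S1 and S2.

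Mt1 (ENSMUSG00000031765, chr8:94179082-94180327) and Mt2 (ENSMUSG00000031762, chr8:94172664-94173568) lie next to each other, 5513 bases apart, and encode the widely expressed metallothioneins. Mt1 was measured at 46.0 CPM in WT 1, 65.2 CPM in WT 2, 92.6 CPM in KO 1 and 65.6 CPM in KO 2. KO was higher than WT within each prefix, while KO 2 and WT 2 were practically equal across prefixes. KO averaged 79.1 ± 19.1 CPM and WT 55.6 ± 13.6 CPM (SD, n = 2 each). A fitted difference of 0.51 in log2 (SE 0.15) had an unadjusted p of 0.00616 and an adjusted p of 0.184 by edgeR, and the single differences were 0.50 in S1 and 0.51 in S2. For prefix it was -0.50 (SE 0.15, unadjusted p = 0.00680, adjusted p = 0.102 by edgeR), with -0.50 in WT and -0.50 in KO. Each of these differences rests on 1 library a side, and neither comparison passed the adjusted test. With the prefix as the sole term the value was -0.22 without KO 1, -0.26 without WT 1 and -0.77 without KO 2.

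Mt2 did not follow the same order. It stood at 6.56 CPM in WT 1, 16.5 CPM in WT 2, 15.7 CPM in KO 1 and 17.1 CPM in KO 2. Only WT 1 was low, and the other 3 libraries were alike. The log2 fold change for genotype was 0.63 (SE 0.28, unadjusted p = 0.0475, adjusted p = 0.556 by edgeR), from -0.08 within S1 and 1.37 within S2. Without WT 1, the library whose Atf4 level was close to that of KO, it was -0.01 (adjusted p = 1.000 by edgeR with genotype alone). For prefix the log2 fold change was -0.59 (SE 0.28, adjusted p = 0.277 by edgeR), with -1.32 in WT and 0.13 in KO. In TPM, the ratio of Mt1 to Mt2 was 5.72 for WT 1, 3.48 for WT 2, 4.99 for KO 1 and 3.37 for KO 2, so the ratio was higher in WT 1 and KO 1 than in the other libraries. The annotated span of an antisense gene, Gm45774, overlaps that of Mt2, with 7 to 26 counts per library beside 206 to 607 for Mt2. Whether the pair share transcript sequence was not checked, and the strand setting is not known.

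Of 18 other genes known to be induced by glucocorticoids, all were measured, 4 fell in KO and none rose. Their median log2 fold change was 0.02. Dusp1, a phosphatase of MAP kinases, fell by 1.36 in log2 units (SE 0.17, adjusted p = 0.00099 by edgeR), from 194 and 124 CPM (WT 1, WT 2) to 56.5 and 64.8 CPM (KO 1, KO 2). Pik3r1, a regulatory subunit of phosphoinositide 3-kinase, fell by 1.32 (SE 0.18, adjusted p = 0.00187 by edgeR), from 87.4 and 116 CPM to 37.5 and 43.1 CPM. Zfp36, an RNA-binding protein that destabilises cytokine mRNAs, fell by 0.99 (adjusted p = 0.0119 by edgeR), and Errfi1, an inhibitor of EGF receptor signalling, fell by 0.95 (adjusted p = 0.0160 by edgeR). With genotype as the sole term or with the replicate number as a block, none of the 18 passed. By DESeq2, limma-voom and limma on TPM, each with the prefix as a term, 4 of the 18 were lower in KO. Without a filter 5 were lower. In S2, 3 of the 18 rose, none fell and the median was -0.08. They were Errfi1 by 0.95 (adjusted p = 0.0205), Pdk4, which restrains pyruvate oxidation, by 1.18 (adjusted p = 0.0354) and Bcl6, a transcriptional repressor, by 0.77 (adjusted p = 0.0496), all by edgeR. Lcn2, with the next smallest p, had a log2 fold change of -1.55 (adjusted p = 0.0548 by edgeR).

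Dusp1, Zfp36 and Errfi1 also respond rapidly to other stimuli, and a list of 16 immediate early genes was lower in KO for 7 members and higher for none, with a median of -0.85. The 4 with the smallest p were Nr4a1 (-2.74, adjusted p = 1.3e-05), Jun (-1.84, adjusted p = 6.7e-05), Fos (-3.65, adjusted p = 0.00023) and Fosb (-5.37, adjusted p = 0.00056), all by edgeR. In S2, 9 of the 16 rose and none fell, with a median of 0.90. Fos stood at 51.0 CPM in WT 1 and 4.84 CPM in WT 2, beside 0.977 CPM in KO 1 and 2.50 CPM in KO 2, so WT 1 carried most of the signal. With genotype as the sole term none of the 16 passed over all libraries or without WT 1, KO 1 or KO 2, and 7 passed without WT 2, all lower in KO. Their genotype median was then -0.85 over all libraries, -0.51 without WT 1 and -1.07 without WT 2. With the prefix as the sole term their median was 0.87 over all libraries and -0.08 without WT 1. These genes are no members, and their part in the falls of Dusp1, Zfp36 and Errfi1 was not tested.

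Of 14 receptor partners and glucocorticoid enzymes, 13 were measured and none passed between genotypes (median -0.20). Ncoa2, a coactivator, had the smallest p (log2 fold change -0.39, unadjusted p = 0.0289, adjusted p = 0.438 by edgeR), and it was the only one of the 13 with an unadjusted p under 0.05. Hsd11b2, which inactivates the hormone, had 1 to 3 counts per library and was not tested. In S2, 2 of the 13 rose and none fell (median 0.36). Hsp90aa1, the chaperone that holds the receptor ready for hormone, rose by 1.34 (SE 0.27, adjusted p = 0.0284 by edgeR), with 478 and 480 CPM in WT 1 and KO 2, against 284 and 125 CPM in WT 2 and KO 1. Stip1, which links HSP70 and HSP90, rose by 0.95 (adjusted p = 0.0241 by edgeR). Hsp90ab1 and Hspa8 had log2 fold changes of 0.88 (adjusted p = 0.0751) and 0.71 (adjusted p = 0.160) by edgeR.

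For the metallothioneins the relevant neighbours are genes of zinc handling, of which 17 of 21 were measured. None passed between genotypes (median -0.06, and 0 at an unadjusted p under 0.05), and none passed between prefixes (median 0.10, with 3 at an unadjusted p under 0.05), by edgeR's test. Mtf1, the metal-sensing factor, was measured at 20.7 CPM in WT 1, 15.4 CPM in WT 2, 12.4 CPM in KO 1 and 19.5 CPM in KO 2. It was highest in WT 1 and lowest in KO 1, the libraries in which Mt1 was lowest and highest. The log2 fold change of Mtf1 was 0.54 for prefix (SE 0.15, adjusted p = 0.0893 by edgeR) and -0.19 for genotype (adjusted p = 0.915 by edgeR). Slc30a1, a zinc exporter and a classical MTF-1 target, was higher in both KO libraries (7.85 and 7.75 CPM) than in WT 1 and WT 2 (6.08 and 6.56 CPM). Its log2 fold change was 0.30 (adjusted p = 0.808 by edgeR), and the genotypes did not overlap for 26.3% of all genes. Only 5 of the 17 zinc genes had a positive genotype change. Slc39a6 (-0.44) and Slc39a10 (-0.25) had a smaller p than Slc30a1 by edgeR, and neither passed. The brain isoform gene Mt3 had at most 5 counts in a library, and Mt4 had none in any library.

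Beside Cdkn1a, 16 p53 pathway genes were measured. None rose or fell in S2 by edgeR's test, with a median of 0.01 and 5 at an unadjusted p under 0.05. Plk2 had the smallest p, with a log2 fold change of -0.56 (adjusted p = 0.0937 by edgeR), followed by the cyclin gene Ccng1 at 0.45 (adjusted p = 0.146 by edgeR). Trp53 itself was at 16.2, 16.3, 14.8 and 18.1 CPM in WT 1, WT 2, KO 1 and KO 2. Between genotypes 1 of the 16, the kinase gene Plk3, fell by 0.88 (adjusted p = 0.0444 by edgeR), and the median was 0.04. None of the 16 passed with genotype as the sole term, with the replicate block or with a minimum of 1 CPM in 2 libraries. By DESeq2, limma-voom and limma on TPM none passed either. With DESeq2 size factors, robust empirical Bayes or the set without mitochondrially encoded and top genes, 1 was lower in KO. Without a filter, 2 were lower.

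Clock genes differed between the prefixes in both directions. Of 17, 4 rose and 6 fell in S2, the median was -0.59, and 0 passed between genotypes, where 3 had an unadjusted p under 0.05. Arntl, the activator BMAL1, stood at 21.2 and 23.3 CPM in WT 1 and KO 2 and at 3.35 and 3.48 CPM in WT 2 and KO 1, a rise in S2 of 2.70 (SE 0.17, adjusted p = 7.9e-05 by edgeR). Dbp, an output factor of the clock, fell by 3.80 (SE 0.18, adjusted p = 1.5e-05 by edgeR), with 3.76 and 3.19 CPM in S2 (WT 1, KO 2) and 45.4 and 51.8 CPM in S1. Per3 fell by 1.78 (adjusted p = 0.00141) and Nfil3 rose by 1.35 (adjusted p = 0.00266), both by edgeR. Per1, which is both a clock gene and a direct receptor target, was at 50.4, 77.2, 40.7 and 39.9 CPM in WT 1, WT 2, KO 1 and KO 2 and passed in neither comparison (genotype -0.63, adjusted p = 0.153 by edgeR). Cdkn1a was the sole member to pass in the comparison in which these clock genes did, and the part of the clock genes in that result was not tested. With the prefix as the sole term, 1 clock gene and no gene of the other 5 lists passed.

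**Figure D4:**
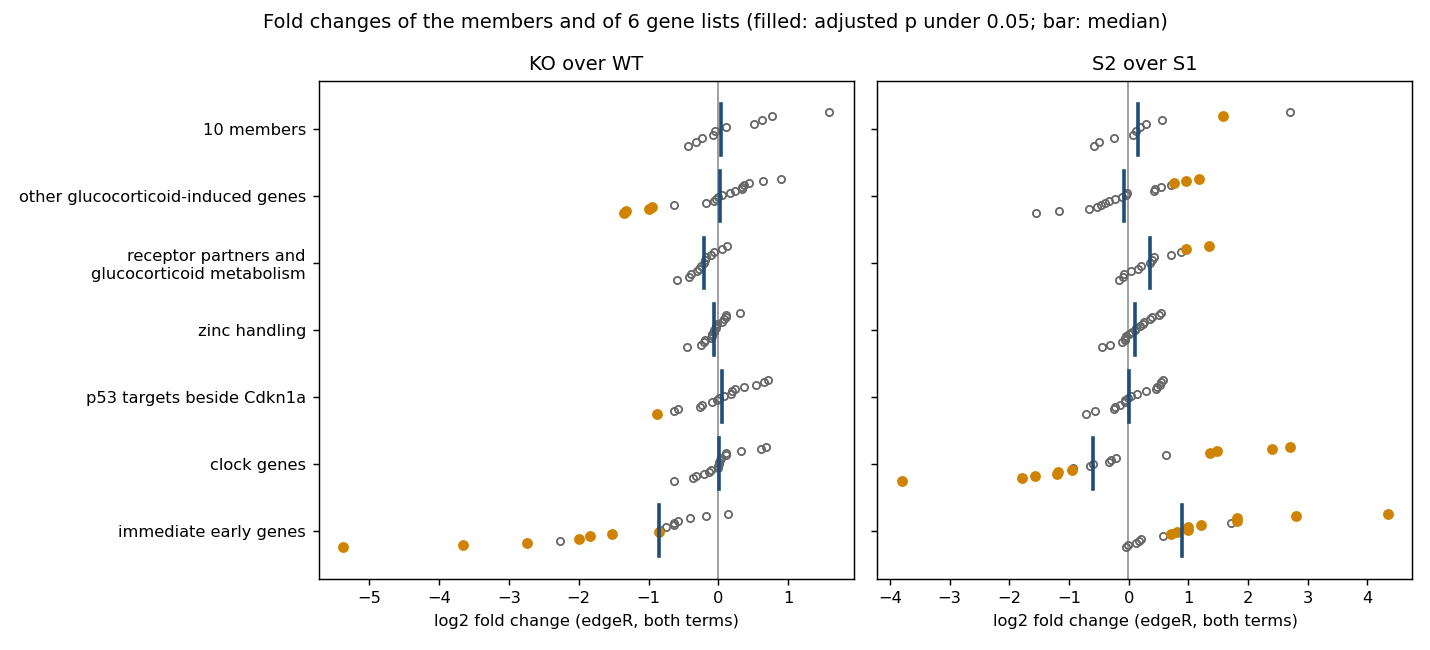
edgeR log2 fold changes of the 10 members and of the 6 gene lists for genotype (left) and prefix (right); each point is a gene, filled points had an adjusted p under 0.05 and the bar is the median. Immediate early genes lie to the left in KO (median -0.85), clock genes spread to both sides in S2, and of the members Cdkn1a alone is filled.

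The genes whose levels followed Tsc22d3 and Mt1 most closely were sought by the distance of centred log2 CPM over the 4 libraries among 11059 protein-coding genes. Nearest to Tsc22d3 were Mfap3l (0.0246), Cxadr (0.0263) and Tk1 (0.0477). Cxadr, a cell adhesion receptor, stood at 40.6, 39.9, 27.9 and 32.5 CPM in WT 1, WT 2, KO 1 and KO 2. Nearest to Mt1 were Zfp94 (0.0431), Apbb3 (0.0612) and Tmco6 (0.0831). Apbb3 stood at 7.997, 11.92, 16.2 and 11.9 CPM in the same order. None of the other 9 members was among the nearest genes of either, and with 4 libraries such closeness describes these libraries only.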

How the data were processed

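Messenger RNA of BAT was made into libraries with a stranded TruSeq kit, per the labels' protocols. The submitters' processing notes name kallisto 0.45.0 and build mm10, with a strand setting not given in the sources used here. For each of 141450 transcripts the authors deposited an estimated count and a TPM value, per the file headers. Of the non-zero deposited counts, 87.9 to 89.0% were not whole.

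Transcripts were matched to GENCODE vM21 (138191, 97.7%). Unmatched ones held 0.992 to 1.04% of counts and were left out. Expected counts were summed per gene and rounded, and the TPM values deposited by the authors were summed. The main test was edgeR 4.0.16 (R 4.3.3), quasi-likelihood, on all 4 libraries with prefix and genotype as terms, TMM scaling, filterByExpr (minimum count 10, total 15), and Benjamini-Hochberg adjustment over 15643 genes. This leaves 1 residual degree of freedom, so SEs rest largely on variation pooled over genes. Single differences are log2 CPM with a prior count of 2. Depth was 25985367 to 34813870 counts. The script was tested on simulated data.

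The correlation over 15643 genes of deviations from the genotype means was 0.382 for libraries of the same prefix. With 2 libraries a genotype it is the same with the opposite sign for the number in the titles, so 1 of these pairings had to be positive and the check cannot show that either pairs the libraries. Named were all 10 members, up to 4 genes of smallest p in each list and comparison, Atf4, 3 nearest genes of Tsc22d3 and Mt1, and transcripts with at least 10% of a gene's TPM. Members and lists were chosen with earlier results of these data known. Trp53, Hsd11b2, Mt3 and Mt4 were named after their values were seen. Alternatives were a threshold of 0.1, DESeq2 1.42.0 and its size factors, no filter, 1 CPM in 2 libraries, each term alone, the replicate number as a block, robust empirical Bayes, limma 3.58.1 on voom weights or on log2(TPM + 1), the set without mitochondrially encoded and the 10 most abundant genes, and each library left out.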

Additional observations from a re-analysis of the deposited data

Results flagged for a closer look

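For 7 members the single difference of KO minus WT in log2 CPM had opposite signs in the 2 prefixes. Each difference came from 1 library of each genotype, and the difference between the prefixes was not tested. The share of all tested genes with opposite signs was not computed, so the count of 7 cannot be read as a trait of the members. Fkbp5 was -0.84 in S1 and 2.35 in S2. Zbtb16 was -0.67 in S1 and 3.44 in S2, and Hsd11b1 was -1.03 and 0.37. The others were Klf9 (-0.33 and 0.23), Cdkn1a (-0.21 and 0.42), Mt2 (-0.0762 and 1.37) and Sgk1 (0.11 and -0.26). In all of these but Sgk1, KO 1 stood below WT 2 and KO 2 was the highest library. Tsc22d3, Nr3c1 and Mt1 had the same sign in both prefixes.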

How the results depend on the processing

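Precision is limited by 2 libraries a genotype and 1 residual degree of freedom. Between genotypes 320 genes and 0 members passed. Without a filter 26873 genes were tested in each comparison, in place of 15643. The count of genes was 710 without a filter, 122 with genotype alone and 164 with the replicate number as a block, and 158 to 235 on leaving out a library. Members passing were 3 without a filter (Fkbp5, Zbtb16, Mt2) and 0 to 1 on leaving out a library (Zbtb16, without KO 1). Between prefixes 491 genes and 1 member passed. By limma-voom 487 genes passed, and by limma on TPM 608, out of 15643 tested. The genes numbered 998 at a threshold of 0.1, 1446 without a filter, 1 with the prefix alone, 0 with the replicate block (1912 at an unadjusted p under 0.05 by edgeR) and 0 to 1 on leaving out a library. Members numbered 2 at the threshold of 0.1, 4 without a filter (Zbtb16, Cdkn1a, Mt2, Hsd11b1), 2 by limma-voom, 2 by limma on TPM, 0 with the prefix alone, 0 with the replicate block and 0 on leaving out any library. Under the replicate block Cdkn1a changed by 1.59 (adjusted p = 0.405 by edgeR), and by 1.38 to 1.80 on leaving out a library (adjusted p 0.111 to 0.464), where fewer samples remain and the prefix is the sole term. The cause of the other changes was not tested.

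Of 100 member results per comparison from alternatives with all libraries, 96 (genotype) and 93 (prefix) kept direction and side of the threshold. With 0 members passing between genotypes and 1 between prefixes, most of these were results that passed in neither fit. They say little about the stability of a call. The call of Cdkn1a between prefixes was lost in 2 of these alternatives. Only Cdkn1a for genotype changed sign (-0.00696 by limma on TPM). On leaving out a library the genotype value ranged over both signs for Mt2 (-0.0110 to 1.32), Klf9 (-0.24 to 0.13), Cdkn1a (-0.99 to 1.04), Hsd11b1 (-0.97 to 0.30), Fkbp5 (-0.34 to 1.72), Sgk1 (-0.29 to 0.13) and Zbtb16 (-1.06 to 3.75). The prefix value did so for Tsc22d3 (-0.13 to 0.42), Mt2 (-1.29 to 0.0948), Klf9 (-0.0781 to 0.25) and Fkbp5 (-0.98 to 1.39).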
